A study of Mus musculus with 6 samples.

Results

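The genes described here are 8 long noncoding RNAs (lncRNAs), found by gene symbol among the 29199 genes of the deposited table of estimated counts. They are Malat1, Neat1, Kcnq1ot1 and Norad, which act as RNA in the nucleus or bind RNA-binding proteins, and Gas5, Snhg1, Snhg5 and Snhg12, which carry small nucleolar RNAs (snoRNAs) within the gene. All 8 passed the filter on low counts. They were chosen with earlier results of these libraries known, and the low Malat1 level of 1 library, replicate 2 of Treg with HP1a KO Tconv, was part of that choice. Malat1 is therefore described with no test.

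Total RNA was sequenced from regulatory CD4 T cells (Treg) sorted from the spleen of mice 3 weeks after a bone marrow graft. Hosts were lethally irradiated C57BL/6J or congenic CD45.1+ B6 (C57BL/6) mice that received equal parts of B6 and semi-allogeneic B6D2F1 marrow, Treg expanded in culture from WT B6 Foxp3-Thy1.1 mice, and naive conventional CD4 T cells (Tconv). Mutant mice and their WT littermates were sex-matched and 6 to 12 weeks old. The study states that male mice were used for its sequencing. In 3 libraries, Treg with WT Tconv, the Tconv came from WT littermates, and in the other 3, Treg with HP1a KO Tconv, they came from mice lacking HP1a, a heterochromatin protein encoded by Cbx5. The line of these Tconv donors was kept on a mixed 129/Sv and C57BL/6 background. The floxed Hp1a allele had been excised with a CMV-cre transgene, which acts in the germ line, so the deletion was present in every tissue of the Tconv donors. The sequenced Treg were WT in both groups, and both groups had been expanded with IL-2, TGFb1 and anti-CD3/CD28 beads before transfer. The sources used here do not say whether libraries came from separate mice or from pools, and p-values then measure the spread between these libraries, which may be in part technical.

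Totals ran from 87421755 to 119078882 counts per library, and 22573 to 24626 genes had a count. Markers of the sorted cell were present throughout: Foxp3, the Treg lineage factor, lay between 158 and 254 CPM (counts scaled to a common library total), and Cd4 between 707 and 851 CPM. Replicate 3 of Treg with WT Tconv stood apart in genes of other cells. Its 8 red cell precursor markers summed to 6258 CPM, against 396 to 741 CPM in the other 5 libraries, and its 8 neutrophil precursor markers to 1911 CPM, against 42.5 to 236 CPM. Macrophage markers were also highest there (180.2 CPM against 13.1 to 48.7 CPM), while B cell, plasma cell and CD8 T cell markers summed to 14.2 to 24.4 CPM, 128 to 183 CPM and 5.82 to 8.85 CPM over the 6 libraries. None of these markers was at 0 in all libraries. Replicate 2 of Treg with HP1a KO Tconv stood apart in mitochondrial ribosomal RNA, described below beside its Malat1 level. In bulk RNA, fewer cells of a type and less RNA per cell cannot be told apart.

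Malat1 is retained in the nucleus, where it gathers at nuclear speckles, bodies rich in splicing factors. Neat1 is the scaffold of paraspeckles, neighbouring nuclear bodies built on its long isoform with proteins such as NONO, SFPQ and PSPC1. Kcnq1ot1 is transcribed from the paternal chromosome antisense to Kcnq1 and silences genes of that imprinted domain in cis, and Norad is a cytoplasmic RNA that binds the PUMILIO proteins, repressors of mRNAs. The snoRNA hosts differ from these in that their introns release snoRNAs, guides for the modification of ribosomal RNA, while the spliced host RNA is short-lived and prone to nonsense-mediated decay. Gas5 was named for its accumulation in growth-arrested cells, and hosts of this kind share with ribosomal protein genes a start site that often lies in a run of pyrimidines.

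On GRCm39, with gene models of GENCODE M39, Malat1 lies at chr19:5845717-5853602 on the minus strand and Neat1 near it, at chr19:5874736-5897132 on the minus strand, both with a canonical transcript of 1 exon. Kcnq1ot1 lies at chr7:142731402-142850327 (minus strand) and Norad at chr2:156229977-156234978 (minus strand). Gas5 lies at chr1:160861793-160866118 (plus strand), Snhg1 at chr19:8700319-8703812 (plus strand), Snhg5 at chr9:88377321-88405615 (minus strand) and Snhg12 at chr4:132035905-132038762 (plus strand). Counts were made per gene, so the short and long isoforms of Neat1 were not separated.

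The mature end of Malat1 is not a poly(A) tail but a triple helix in which 2 U-rich runs of the RNA clasp an A-rich run. The sequence of that end is shown because it sets Malat1 apart from RNAs with a tail. The window of 111 bases at chr19:5845997-5846107 (GRCm39, minus strand) is printed 5′ to 3′ as DNA, with one of the U-rich runs and then the A-rich run in capitals.
Malat1: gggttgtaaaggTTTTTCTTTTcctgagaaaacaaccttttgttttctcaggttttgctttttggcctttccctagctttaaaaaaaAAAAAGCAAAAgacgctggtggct
The starts of the capitalised runs are 75 bases apart. Of 32851 RefSeq promoter windows cut to the same length, 0 held both runs on either strand. The letters of the capitalised U-rich run alone were found in 0.222% of them on the gene's strand and 0.207% on the other, and those of the A-rich run in 0.0365% and 0.0244%.

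Norad carries repeats of the PUMILIO recognition sequence, in DNA letters TGTA, any base and ATA, and 4 of them are shown as the part of Norad that contacts these proteins. Its longest transcript held 11 matches on its own strand and 0 on the other, or 2.224 per kb, rank 8 among the 22002 genes with a transcript of at least 1000 bases. Of those genes, 31.3% held any match. The windows of 24 bases follow, with the match in capitals.
Norad site 1, chr2:156234234-156234257: aagtcctgTGTATATAatatgaaa
Norad site 2, chr2:156233738-156233761: aaacatgcTGTAAATAcctttttg
Norad site 4, chr2:156233362-156233385: gactgctgTGTATATAgtggacaa
Norad site 6, chr2:156233056-156233079: gtgtatacTGTATATAatggacaa
Matches were 0 to 1 in the transcripts of Malat1 and the 4 hosts, 4 in Neat1 and 18 in Kcnq1ot1, both long. Per kb these came to 0.179 in Neat1 and 0.193 in Kcnq1ot1.

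The 4 hosts contain 25 annotated snoRNA genes at 23 separate positions on their own strand: 10 annotations in Gas5, 8 in Snhg1, 5 in Snhg12 and 2 in Snhg5. In Gas5, Snhg1 and Snhg5 every one lies outside the canonical exons, and in Snhg12 all 5 lie within the canonical transcript, which GENCODE M39 gives as 1 unspliced exon. Most are of the C/D class, which guides 2′-O-methylation and is marked by a C box near the 5′ end and a D box near the 3′ end. One from each host is shown, in GRCm39, with TGATGA and CTGA in capitals.
Snord47 in Gas5, chr1:160865652-160865728, plus strand: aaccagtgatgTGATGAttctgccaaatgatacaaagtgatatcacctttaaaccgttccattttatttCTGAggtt
Gm25855 in Snhg1, chr19:8701357-8701428, plus strand: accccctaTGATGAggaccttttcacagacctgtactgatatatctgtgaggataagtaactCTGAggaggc
Snord50a in Snhg5, chr9:88403582-88403653, minus strand: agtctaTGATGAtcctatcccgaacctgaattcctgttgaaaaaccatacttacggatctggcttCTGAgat
Snord99 in Snhg12, chr4:132038002-132038075, plus strand: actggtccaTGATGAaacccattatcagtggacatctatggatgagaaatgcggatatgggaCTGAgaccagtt
Both boxes lay within 20 bases of the ends in 17 of the 25 annotations, against 0.0517% of 32851 promoter windows of 76 bases on the gene's strand and 0.0213% on the other. The snoRNAs inside the hosts have no row in the table used and were not analysed here, so the values below are those of the host genes.

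**Figure D1:**
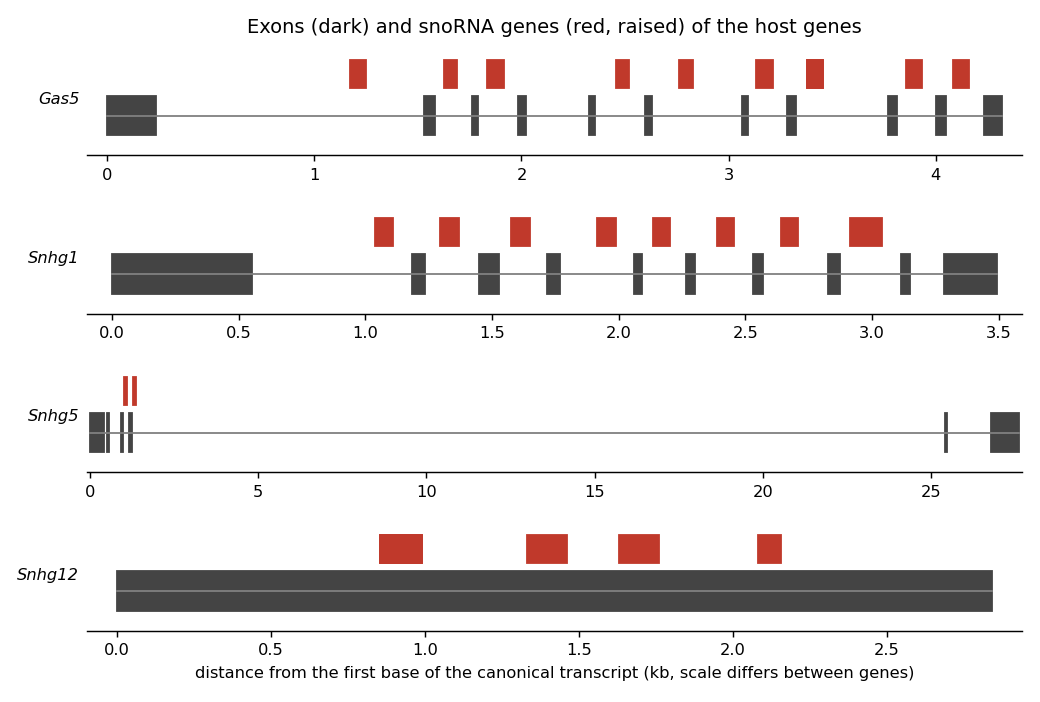
Exons of the canonical transcript (dark) and snoRNA genes on the same strand (red, raised) in the 4 host genes, drawn to scale along each gene from the first base of the transcript (x axis, kb, with a scale of its own for each gene). The snoRNA genes of Gas5, Snhg1 and Snhg5 fall between exons and those of Snhg12 within its single exon.

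Start sites of the hosts were read for a run of pyrimidines, defined as C followed by at least 4 of C or T, beginning within 20 bases of the start. Windows of 60 bases matched to GRCm39 from RefSeq promoters are shown for the hosts that held one and for Snhg1, with the run in capitals.
Gas5, chr1:160862711-160862770, plus strand: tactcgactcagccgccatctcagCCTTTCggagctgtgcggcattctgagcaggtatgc
Snhg5, chr9:88404916-88404975, minus strand: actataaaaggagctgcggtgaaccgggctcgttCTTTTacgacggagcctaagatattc
Snhg12, chr4:132035964-132036023, plus strand: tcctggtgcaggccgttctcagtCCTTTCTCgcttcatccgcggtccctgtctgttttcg
Snhg1, chr19:8700826-8700885, plus strand: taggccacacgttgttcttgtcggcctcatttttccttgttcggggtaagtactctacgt
The run is common: 47.5% of 32851 promoters held one on the gene's strand and 52.1% on the other, and 71.6% of 81 cytosolic ribosomal protein promoters did. Among the members with an entry, the windows of Malat1, Kcnq1ot1, Snhg1 and the upstream start of Gas5 held none by this rule. Neat1 and Norad were not matched.

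Malat1 was the most abundant of the 8 genes in every library. It took 1.358%, 1.49% and 1.274% of all counts in replicates 1 to 3 of Treg with WT Tconv, and 1.249%, 0.6793% and 1.064% in those of Treg with HP1a KO Tconv. The 95% Wilson intervals, which cover counting error only, were narrow at this depth, at 0.6777% to 0.681% for replicate 2 of Treg with HP1a KO Tconv. The group means were 1.37 ± 0.109% and 0.997 ± 0.291% (SD, n = 3). In CPM on TMM-scaled totals, the scale of all gene levels below unless stated, Malat1 was 13608, 15209 and 12959.9 with WT Tconv, and 12475, 6610.3 and 10535 with HP1a KO Tconv. All 3 libraries with HP1a KO Tconv were below all 3 with WT Tconv, as was so for 11.6% of all genes tested. Replicate 2 was far below the others. The log2 fold change of Treg with HP1a KO Tconv over Treg with WT Tconv was -0.50, and without that replicate -0.28. Without it Malat1 was again lower with no overlap, as were 18.5% of all genes (37.4% did not overlap in either direction). The level of Malat1 was part of the choice of genes, so its separation of the groups is no test.

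Neat1 was 246, 282 and 257 CPM in Treg with WT Tconv, and 278, 184 and 246 CPM in Treg with HP1a KO Tconv. Replicate 2 was again the lowest of the 6 libraries, while replicate 1 lay within the range of the WT group and replicate 3 level with its lowest library. The log2 fold change was -0.15 ± 0.147 (SE; adjusted p = 0.68, edgeR's quasi-likelihood test with Benjamini-Hochberg adjustment, as throughout), and without replicate 2 it was 0.00 ± 0.0814 (adjusted p = 0.994).

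Norad was 395, 385 and 354 CPM with WT Tconv, and 343, 322 and 334 CPM with HP1a KO Tconv. The groups did not overlap, and the libraries with HP1a KO Tconv were close to one another (333 ± 10.2 CPM against 378 ± 21.1 CPM, SD, n = 3). The log2 fold change was -0.18 ± 0.0693, with an unadjusted p of 0.0289 and an adjusted p of 0.291 (edgeR), and the 95% interval ran from -0.34 to -0.02. Its near-identical copy Gm7292, which shares 2537 bases at 99.2% identity, held 40 to 79 counts per library, against 29482 to 41481 counts for Norad.

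Kcnq1ot1 was 93.4, 92.3 and 83.1 CPM with WT Tconv, and 93.1, 82.5 and 98.4 CPM with HP1a KO Tconv. The groups overlapped, with the lowest library of each at nearly the same level, and the log2 fold change was 0.03 ± 0.0854 (edgeR adjusted p = 0.907). Kcnq1, the potassium channel gene within which it lies on the opposite strand, had 0 to 13 counts per library and was not tested. Kcnq1ot1 shares stretches of 200 bases or more at 95% identity with 6 genes of the table, among them Atp5mj, which had 7132 to 9152 counts, so estimated counts of Kcnq1ot1 are uncertain to that extent.

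**Figure D2:**
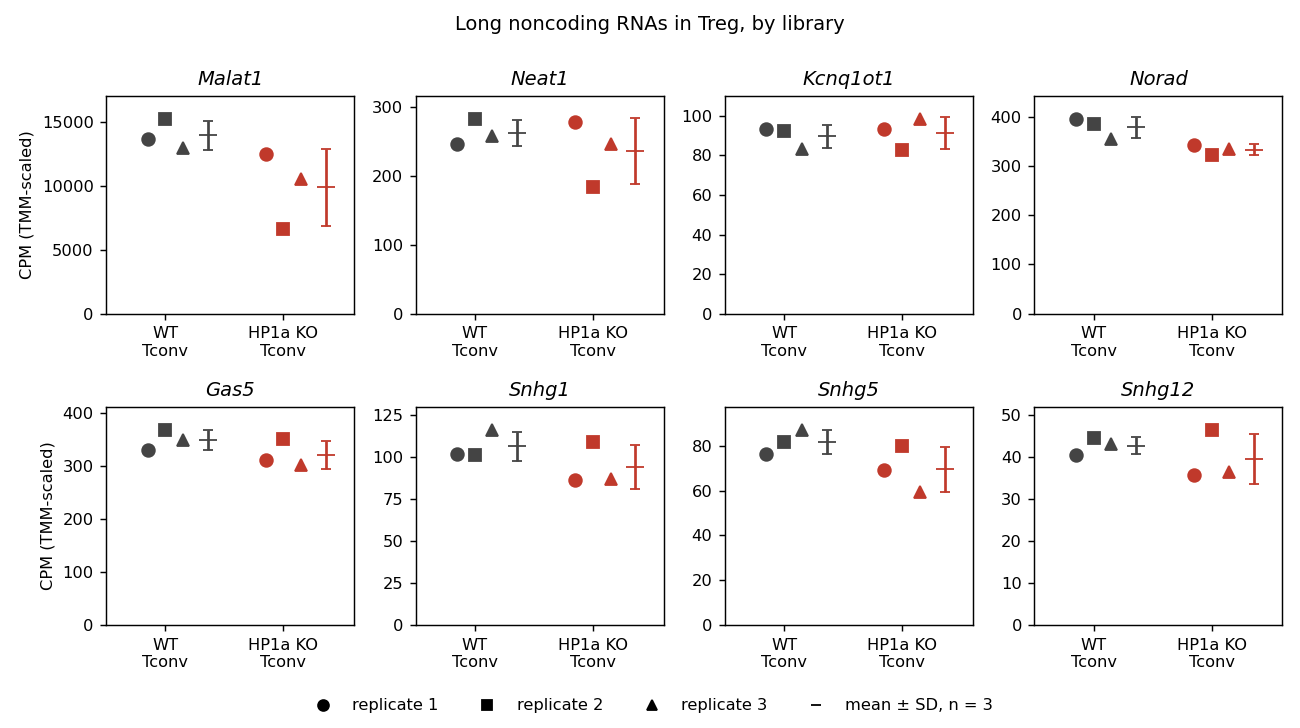
Level of each lncRNA (y axis, CPM on TMM-scaled totals, linear and from 0) in each Treg library, by the genotype of the transferred Tconv, with symbols for the replicate and the mean ± SD (n = 3). The square of the HP1a KO group, replicate 2, is the lowest point for Malat1, Neat1, Kcnq1ot1 and Norad and the highest of its group for the 4 hosts.

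The 4 hosts were lower in replicates 1 and 3 of Treg with HP1a KO Tconv than in any library with WT Tconv, and replicate 2 lay among the WT libraries or above them. Gas5 was 331, 368 and 349.8 CPM with WT Tconv, and 311, 352 and 302 CPM with HP1a KO Tconv. Snhg1 was 102, 101 and 116 CPM with WT Tconv, and 86.4, 109 and 86.8 CPM with HP1a KO Tconv. Both groups overlapped in each gene through replicate 2 alone.

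Snhg5, whose snoRNAs are the near-identical pair Snord50a and Snord50b, was 76.3, 81.7 and 87 CPM with WT Tconv, and 69.2, 79.8 and 59.6 CPM with HP1a KO Tconv. Snhg12 was 40.6, 44.5 and 43.1 CPM with WT Tconv, and 35.7, 46.4 and 36.4 CPM with HP1a KO Tconv, where the 46.4 CPM of replicate 2 was the highest of all 6 libraries. With all libraries, the log2 fold changes were -0.12 ± 0.081 for Gas5 (adjusted p = 0.533), -0.17 ± 0.107 for Snhg1 (0.504), -0.23 ± 0.109 for Snhg5 (0.38) and -0.11 ± 0.108 for Snhg12 (0.665), by edgeR. None passed the threshold of 0.05.

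Over the 7 genes tested, 0 had an adjusted p under 0.05, as was so for 0% of all 18321 genes tested with edgeR, and for 0% with limma-voom. With DESeq2, the tool of the study, 0 of the 7 passed, against 5.91% of the 11820 genes that kept an adjusted p. The study also required an absolute log2 fold change above 1 for a call, a cut that was not applied here. At an unadjusted p under 0.05 edgeR had 1 of 7, Norad, against 14.5% of all genes (7.52% in the lower and 6.98% in the higher direction). By sign, 6 of these 7 were lower with HP1a KO Tconv, all but Kcnq1ot1, against 51.5% of all genes. The groups did not overlap, in the lower direction, for 1 of the 7, again Norad, against 11.6% of all genes. The median log2 fold change of the 7 was -0.15, beside -0.01 over all genes tested, whose median absolute change was 0.169.

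In replicate 2 of Treg with HP1a KO Tconv, the hosts and the other 4 genes deviated in opposite directions. Compared with the mean CPM of the other 2 libraries of its group, Malat1 was at 57.5%, Neat1 at 70.4%, Kcnq1ot1 at 86.2% and Norad at 95.3%. Each of these 4 had its lowest level of the 6 libraries there. The same was true of 22.3% of all genes tested. The hosts went the other way: Gas5 was at 115%, Snhg5 at 124%, Snhg1 at 126% and Snhg12 at 129% of the other 2 libraries, and each had the highest level of its group there, as did 38% of all genes. All genes were also ranked by the log2 CPM of this library minus the mean log2 CPM of those 2 libraries. Malat1 was then at the 6.39th percentile, Neat1 at the 11.9th, Kcnq1ot1 at the 26.6th and Norad at the 40.2nd. Gas5 was at the 75.2nd, Snhg5 at the 84.1st, Snhg1 at the 85.2nd and Snhg12 at the 86.5th. The pattern of the 4 hosts did not extend to all snoRNA hosts. Of 14 others tested, 7 had the highest level of their group in that library, and 3 had their lowest of the 6, among them Snhg3 (13.2 CPM against 27 and 20.4 CPM). These values rest on 1 library and on the choice of that library, and are given without a test.

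**Figure D3:**
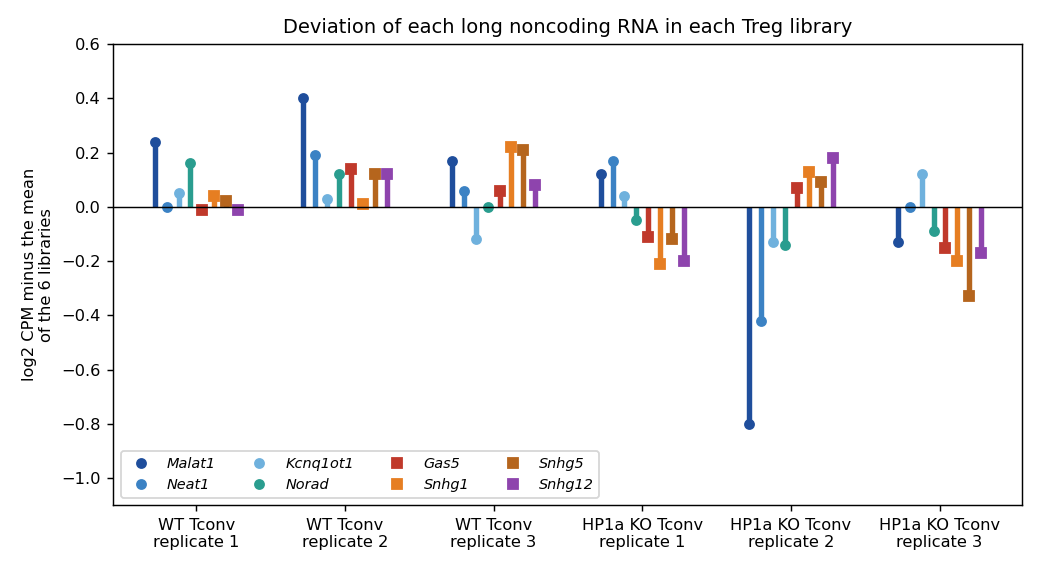
Deviation of each lncRNA in each library from its own mean over the 6 Treg libraries (y axis, log2 CPM difference), with circles for Malat1, Neat1, Kcnq1ot1 and Norad and squares for the snoRNA hosts. In replicate 2 of the HP1a KO group the circles lie below 0, down to -0.80 for Malat1, and the squares above 0, up to 0.18 for Snhg12.

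That library also stood apart in other RNA, by measures chosen after its values were seen. Mitochondrial ribosomal RNA took 0.404% of its counts, against 1.93% to 2.25% in the other 5 libraries. Its mt-Rnr1, the small mitochondrial rRNA, was 213 CPM against 1541 to 1914 CPM, and its mt-Rnr2, the large one, 3719.8 CPM against 17758 to 21074 CPM. Mitochondrially encoded mRNA, by contrast, took 0.567% there and 0.534% to 0.661% in the others. Transcripts of cytosolic ribosomal proteins took 7.2% there against 5.83% to 6.52%, and small noncoding RNA 0.216% against 0.267% to 0.311%. All lncRNAs together took 1.5% against 1.83% to 2.32%, while the lncRNAs other than Malat1 took 0.824%, within the 0.77% to 0.827% of the other libraries.

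**Figure D4:**
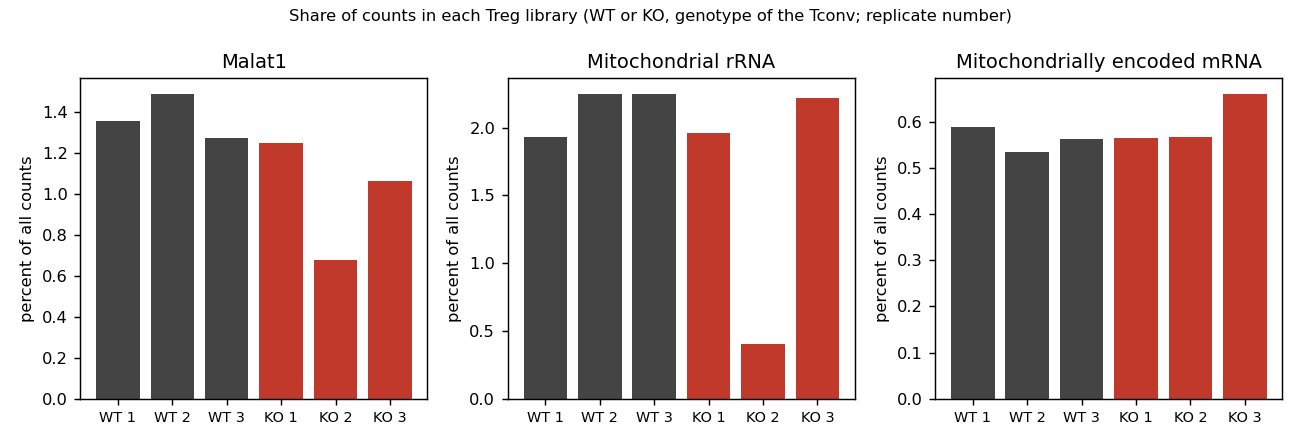
Share of all counts (y axes, percent, from 0) taken by Malat1, by mitochondrial rRNA and by mitochondrially encoded mRNA in each Treg library, with dark bars for WT Tconv, red bars for HP1a KO Tconv and the replicate number below. Replicate 2 of the HP1a KO group is lowest for Malat1 (0.6793%) and for mitochondrial rRNA (0.404%), while its mitochondrially encoded mRNA (0.567%) lies within the range of the other libraries.

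Transcript length moved with the same library. Among protein-coding genes of at least 10 CPM, the median difference between replicate 2 and the other 2 libraries of its group was 0.14 on the log2 scale for the 358 genes with a canonical transcript of up to 1 kb, and -0.12 for the 594 over 8 kb, with the bins between in order. Set against genes of their own length, 1.66% of the bin were lower than Malat1 (7.89 kb), 7.74% lower than Neat1 (22.4 kb) and 40.6% lower than Norad (4.94 kb). Snhg1 (1.13 kb), Snhg5 (1.48 kb) and Snhg12 (2.84 kb) were above 91.2%, 89.4% and 95.8% of their bins, and Gas5 (0.669 kb) above 63.1%. Kcnq1ot1 was above 10.5% of its bin by a spliced canonical transcript of 1.72 kb, although the gene's exons cover 93.9 kb in all. The part of RNA quality, library preparation or transcript length in the levels of this library was not tested.

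Without replicate 2 of Treg with HP1a KO Tconv, the hosts stood lower. The log2 fold change was -0.19 ± 0.0631 for Gas5, -0.29 ± 0.0741 for Snhg1, -0.34 ± 0.0866 for Snhg5 and -0.24 ± 0.0669 for Snhg12, with adjusted p from 0.158 to 0.215 (edgeR). The unadjusted p was under 0.05 for 5 of the 7 genes tested, the 4 hosts and Norad, against 16.4% of all genes in that fit (8.92% in the lower direction), and 0 of the 7 passed after adjustment, as did 0% of all genes. The groups did not overlap, in the lower direction, for 5 of the 7, again Norad and the 4 hosts, against 18.5% of all genes (37.4% in either direction). Leaving out that library was decided with its values known.

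**Figure D5:**
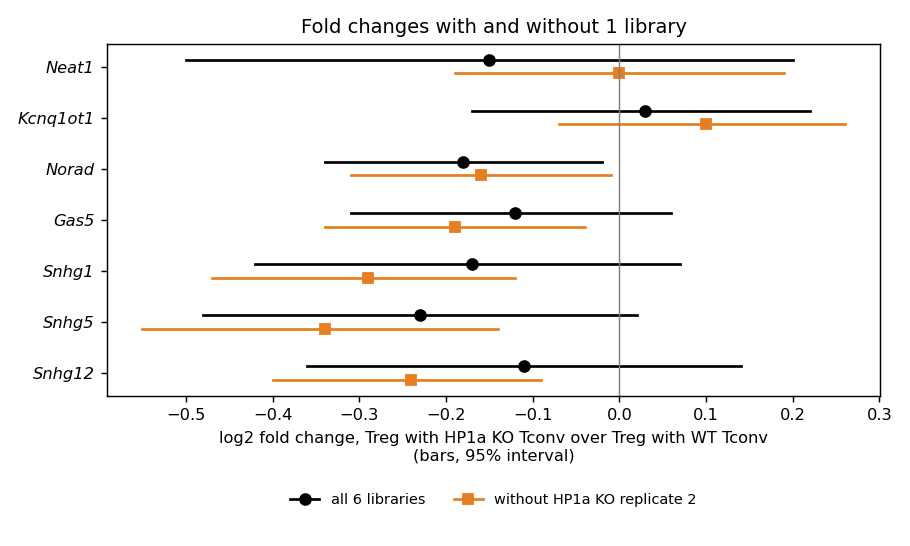
Log2 fold change of Treg with HP1a KO Tconv over Treg with WT Tconv (x axis) for the 7 lncRNAs tested, with 95% intervals from the edgeR fit of all 6 libraries (black) and of 5 libraries without replicate 2 of the HP1a KO group (orange). The 4 hosts move further below 0 without that library (Snhg5 from -0.23 to -0.34), while Neat1 moves from -0.15 to 0.00.

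Replicate 3 of Treg with WT Tconv, where red cell, neutrophil and macrophage markers were high, was neither the highest nor the lowest library for Neat1, Gas5 or Snhg12. It was the highest for Snhg1 (116 CPM) and Snhg5 (87 CPM) and the lowest of the WT group for Malat1, Kcnq1ot1 and Norad. Without it the log2 fold changes were -0.55 for Malat1, -0.16 for Neat1, -0.23 for Norad, -0.12 for Gas5, -0.11 for Snhg1, -0.18 for Snhg5 and -0.11 for Snhg12, and that of Kcnq1ot1 went from 0.03 to -0.02.

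The 8 genes varied to unequal degrees. Over the 6 libraries the coefficient of variation of the CPM was 25.3% for Malat1, above 96% of the 8848 genes of at least 10 CPM, whose median was 8.72%. Much of that value came from replicate 2 of Treg with HP1a KO Tconv (6610.3 CPM against 10535 to 15209 CPM in the others). Its low Malat1 was part of the choice of these genes, so the rank of Malat1 is no test. Neat1 (14.1%), Snhg5 (13%), Snhg1 (11.8%) and Snhg12 (10.6%) were above the 8.72% median, and Norad (8.11%), Gas5 (7.64%) and Kcnq1ot1 (6.96%) below it. The place of Neat1 above the median rested on the same library, where it was 184 CPM against 246 to 282 CPM in the others. Per kb of all annotated exons, Malat1 was at 1509 ± 381 CPM per kb (SD, n = 6), followed by Gas5 (79.3 ± 6.06), Norad (71.1 ± 5.76), Snhg1 (28.7 ± 3.38), Snhg5 (17 ± 2.21), Snhg12 (14.4 ± 1.52), Neat1 (11.1 ± 1.57) and Kcnq1ot1 (0.964 ± 0.0671). The ranges over libraries of Gas5 and Norad overlapped (71.3 to 86.9 and 64.4 to 79), as did those of Snhg5, Snhg12 and Neat1 in turn. By the length of the canonical transcript alone Gas5 came to 501 CPM per kb, Snhg1 to 88.7 and Kcnq1ot1 to 52.5, so the order below Malat1 depended on the gene model.

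Patterns over the 6 libraries were compared by the root-mean-square difference of centred log2 CPM, among 13262 genes of at least 1 CPM on average. The genes most like Malat1 were Gm43065 (0.0294), Itgav (0.07), an integrin subunit, and Taf15 (0.0744), an RNA-binding protein, beside a median of 0.421 over all genes. Those most like Norad were Atrx (0.0135), a chromatin remodeller, Zfp871 and Ccser2. Those most like Neat1 were Ddx47, an RNA helicase, Gm47586 and Nsfl1c, and those most like Kcnq1ot1 included Trmt6, part of a tRNA methyltransferase, and Heatr5b. Each of these lists is a description over 6 libraries.

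For the hosts, the most alike were Ahsa1, Hspe1 and Cacybp for Snhg1, of which Ahsa1 and Hspe1 encode co-chaperones. They were Atxn7l3b, Ccdc85b and Rnf185 for Gas5, Golt1b, Nfkbiz and 4833418N02Rik for Snhg5, and 1500015A07Rik, Rsl1d1 and Yaf2 for Snhg12, where Rsl1d1 is a nucleolar protein of ribosome assembly. Likeness among the hosts was uneven. From Snhg12, Gas5 ranked 29, Snhg1 160 and Snhg5 631. From Snhg1, Snhg12 ranked 82, Snhg5 105 and Gas5 294. From Snhg5, Snhg1 ranked 175, Gas5 366 and Snhg12 411, and from Gas5, Snhg12 ranked 200, Snhg1 1377 and Snhg5 1449. Neat1, which neighbours Malat1 on the chromosome, was the 308th nearest to Malat1, and Malat1 the 4160th nearest to Neat1. The measure counts the size of deviations as well as their direction. Both genes were lowest in replicate 2 of Treg with HP1a KO Tconv, at -0.8 for Malat1 and -0.42 for Neat1.

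Other genes of the same pathways were read from fixed lists, and in every list 0 genes passed at an adjusted p under 0.05 with edgeR. Of 14 tested lncRNAs that also host snoRNAs, 10 had a negative and 4 a positive log2 fold change, with a median of -0.09. Snhg9 was 2.36, 2.42 and 2.25 CPM with WT Tconv and 1.52, 1.85 and 1.86 CPM with HP1a KO Tconv, a log2 fold change of -0.43 ± 0.171 (adjusted p = 0.31). Snhg8 was 32.2, 31.9 and 33.8 CPM against 34.6, 44.8 and 34.1 CPM, a log2 fold change of 0.21 ± 0.111 (adjusted p = 0.43). The members' direction was thus not found in every host, and 1 of the 14 had an unadjusted p under 0.05, a share no higher than the 14.5% of all genes.

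Of 13 genes for core proteins and assembly factors of snoRNA particles, 8 had a negative and 5 a positive log2 fold change (median -0.03), and 1 in the lower and 2 in the higher direction had an unadjusted p under 0.05, against 14.5% of all genes. Naf1, an assembly factor of H/ACA particles, was 10.6, 10.3 and 10.6 CPM against 7.78, 8.25 and 9.26 CPM (-0.32 ± 0.107, adjusted p = 0.254), and Pih1d1, part of the R2TP complex that assembles C/D particles, 23.2, 23.4 and 22.2 CPM against 25.4, 31.4 and 28 CPM (0.30 ± 0.0916, adjusted p = 0.23). Of 85 cytosolic ribosomal protein genes tested, 77 had a positive log2 fold change. Their median was 0.12, opposite in sign to the median of the members other than Malat1 (-0.15). An unadjusted p under 0.05 in the higher direction was found for 17, against 6.98% of all genes. In replicate 2 of Treg with HP1a KO Tconv 68 of the 85 had the highest level of their group, against 38% of all genes. The fold change between groups also moved with length: its median was 0.07 over the protein-coding genes with a transcript of up to 1 kb and -0.06 over those above 8 kb. Ribosomal protein mRNAs are generally short, and the part of length in their values was not tested. Rpl28 was 307, 301 and 343 CPM with WT Tconv and 373, 386 and 394 CPM with HP1a KO Tconv (0.28 ± 0.0736, adjusted p = 0.209), and Rpl39l, a weakly expressed paralogue, had a log2 fold change of -0.84 ± 0.335 (adjusted p = 0.308).

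Of the 15 genes of nonsense-mediated decay, which degrades the spliced hosts, 11 had a negative and 4 a positive log2 fold change (median -0.05), and 2 in the lower and 1 in the higher direction had an unadjusted p under 0.05, against 14.5% of all genes. In replicate 2 of Treg with HP1a KO Tconv, 7 of the 15 had their lowest level of the 6 libraries, against 22.3% of all genes. Upf3b, which links the decay machinery to exon junctions, was 46.7, 42.1 and 41.3 CPM against 38.9, 32.9 and 38.8 CPM (-0.23 ± 0.091, adjusted p = 0.301). Smg9, a regulator of the SMG1 kinase, was 24.8, 25.2 and 28 CPM against 30.1, 31.1 and 33.2 CPM (0.27 ± 0.0806, adjusted p = 0.228).

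Transcripts for proteins of paraspeckles and nuclear speckles, the bodies that Neat1 and Malat1 mark, were read next. Of 12 genes for paraspeckle proteins, 11 had a negative log2 fold change, with a median of -0.17, and 6 had an unadjusted p under 0.05 in the lower direction, against 7.52% of all genes, while 0 passed after adjustment. For 7 of the 12 the groups did not overlap, in the lower direction, against 11.6% of all genes. Sfpq, a core paraspeckle protein that binds Neat1, was 643, 665 and 615 CPM against 561, 489 and 497 CPM (-0.31 ± 0.078, adjusted p = 0.209 with edgeR and 0.0119 with DESeq2). Smarca4, a chromatin remodeller, was the 1 gene of the list with a positive value (0.04 ± 0.0852, adjusted p = 0.865). In replicate 2 of Treg with HP1a KO Tconv, 7 of the 12 had their lowest level of the 6 libraries, against 22.3% of all genes.

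All 12 genes for nuclear speckle proteins had a negative log2 fold change (median -0.10), against 51.5% of all genes, and 2 had an unadjusted p under 0.05, against 7.52% in that direction. In replicate 2 of Treg with HP1a KO Tconv, 5 of the 12 had their lowest level of the 6 libraries, against 22.3% of all genes. The list went both ways there, as 6 of the 12 had the highest level of their group, against 38% of all genes. Srsf5, a splicing factor, was 861, 927 and 857 CPM against 785, 745 and 709 CPM (-0.24 ± 0.0732, adjusted p = 0.23 with edgeR and 0.0412 with DESeq2). Of the 4 genes of PUMILIO proteins and other Norad partners, all were negative (median -0.07), against 51.5% of all genes. Of these 4, 0 had an unadjusted p under 0.05 with edgeR, against 14.5% of all genes. In replicate 2 of Treg with HP1a KO Tconv, 3 of the 4 had their lowest level of the 6 libraries, against 22.3% of all genes. Khdrbs1, an RNA-binding protein, was 188, 194 and 180.4 CPM against 179, 124 and 180.3 CPM (-0.22 ± 0.144, adjusted p = 0.533).

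In the imprinted domain of Kcnq1ot1, 9 genes were tested, 6 with a positive and 3 with a negative log2 fold change (median 0.10), and 2 had an unadjusted p under 0.05, both in the higher direction, against 6.98% of all genes. Osbpl5, a lipid transfer protein, was 40.4, 42.2 and 35.1 CPM with WT Tconv and 52.5, 47.8 and 56.2 CPM with HP1a KO Tconv (0.41 ± 0.0949, adjusted p = 0.209 with edgeR and 0.0104 with DESeq2). Ascl2, a transcription factor, was at most 0.52 CPM in any library (-1.34 ± 0.725, adjusted p = 0.445). Cdkn1c, a cell cycle inhibitor silenced by Kcnq1ot1 in development, was between 0.748 and 1.17 CPM.

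Among 16 other lncRNAs tested, 9 had a negative and 7 a positive log2 fold change (median -0.05), and 4 in the lower and 1 in the higher direction had an unadjusted p under 0.05, against 14.5% of all genes. Dleu2, which carries miR-15a and miR-16-1, was 31.6, 31.5 and 42.1 CPM with WT Tconv and 25.3, 24.6 and 21.7 CPM with HP1a KO Tconv (-0.56 ± 0.127, adjusted p = 0.209 with edgeR and 0.00654 with DESeq2). Airn, an imprinted antisense lncRNA like Kcnq1ot1, was 3.41, 3.99 and 3.96 CPM against 4.27, 5.03 and 5.21 CPM (0.35 ± 0.147, adjusted p = 0.327).

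Of 68 tested genes within 100 kb of a member, 39 had a negative and 29 a positive log2 fold change (median -0.08), and 9 had an unadjusted p under 0.05, against 14.5% of all genes. Frmd8, next to Neat1, was 151, 165 and 144 CPM with WT Tconv and 181, 189 and 195 CPM with HP1a KO Tconv (0.30 ± 0.0728, adjusted p = 0.209), and Syncrip, an RNA-binding protein gene near Snhg5, 187, 174 and 178 CPM against 151, 136 and 154 CPM (-0.29 ± 0.0713, adjusted p = 0.209). Genes that overlap a member on the other strand included Gm37376 within Malat1 (57 to 184 counts, -0.91 ± 0.271, adjusted p = 0.229), Frmd8os with Neat1 (-0.07 ± 0.546, adjusted p = 0.965) and Slc3a2 with Snhg1 (-0.35 ± 0.143, adjusted p = 0.331). Zbtb37, which overlaps Gas5, had a log2 fold change of 0.12 ± 0.155 (adjusted p = 0.761). The library kit keeps strand, but whether counting used it is not given in the sources used here, so reads of these overlapping pairs are uncertain.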

How the data were processed

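RNA was measured in 3 libraries of Treg with WT Tconv and 3 of Treg with HP1a KO Tconv, grouped by their titles. Libraries were made from total RNA with a stranded kit. Per the study's methods and the submitters' processing notes, reads were trimmed by the authors and mapped with STAR to GRCm39 under an Ensembl annotation, and Salmon gave the level of each gene. The deposited table holds Salmon's estimated counts as whole numbers, before any normalization. The model shares ambiguous reads between similar genes. The table holds 29199 genes, of which 28854 identifiers matched GENCODE M39.

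Genes were tested with edgeR 4.0.16 (TMM scaling, filterByExpr, quasi-likelihood F-test, robust, group only) in R 4.3.3. P-values were adjusted by Benjamini-Hochberg over 18321 genes, and a call needed an adjusted p under 0.05. The fit was tested on simulated data. The study's tool, DESeq2 (1.42.0), and limma-voom (limma 3.58.1) were among 16 alternatives. The study's cut on the fold change was applied in none of them. Log2 CPM used a prior count of 2.

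The members and lists were chosen with earlier results of these data known. Cytosolic ribosomal protein genes were taken by a pattern of gene symbols, which also let in Rps19bp1, named as a binding protein of Rps19. Named genes were the 8 members, in each list the gene with the smallest p in each direction, the 3 genes most like each member over the libraries, and genes overlapping a member; some of these are not reported here. DESeq2 calls and Cdkn1c, chosen after their values were seen, are also named. Promoter windows are from RefSeq (GRCm38.p6), and those printed were matched exactly to GRCm39. Other sequences were read from GRCm39.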

Additional observations from a re-analysis of the deposited data

How the results depend on the processing

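The count of members with an adjusted p under 0.05 was 0 under all 16 alternatives. The smallest adjusted p of any tested member was 0.0997 (edgeR), for Snhg1, which had 0.504 with all libraries. It came from the fit without replicate 2 with HP1a KO Tconv and replicate 3 with WT Tconv, the libraries described above as standing apart. Over all genes tested, the count of 0 became 698 with DESeq2, 1 with upper quartile scaling, 38 with no count filter, 15 when replicate 2 with HP1a KO Tconv and replicate 3 with WT Tconv were both left out, and 0 to 2 when each library was left out in turn. Among the genes of the lists it became 10 with DESeq2, of 217 with an adjusted p (4.61%, against 5.91% of all genes): Dleu2, Mir17hg, Sfpq, Tardbp, Srsf5, Osbpl5, Rpl28, Rplp1, Frmd8 and Syncrip. The cause was not tested. Leaving out 1 library gave log2 fold changes of -0.69 to -0.28 for Malat1, -0.27 to 0.00 for Neat1, -0.03 to 0.10 for Kcnq1ot1, -0.23 to -0.14 for Norad, -0.19 to -0.07 for Gas5, -0.29 to -0.10 for Snhg1, -0.34 to -0.13 for Snhg5 and -0.24 to -0.03 for Snhg12. Kcnq1ot1 turned from 0.03 to -0.02 without replicate 3 with WT Tconv and to -0.03 without replicate 3 with HP1a KO Tconv, and Neat1 from -0.15 to 0.00 without replicate 2 with HP1a KO Tconv. Of Treg with HP1a KO Tconv, the mean Malat1 share ranged from 0.872% to 1.16% when 1 library was left out.

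Libraries with the same replicate number did not all deviate together (correlations of -0.04, 0.18 and 0.12 across genes), so the numbers were not taken to pair them. With the replicate number as a block, 1 gene was called over all genes and 0 members, and the log2 fold changes were -0.54 for Malat1, -0.17 for Neat1, 0.03 for Kcnq1ot1, -0.18 for Norad, -0.12 for Gas5, -0.18 for Snhg1, -0.24 for Snhg5 and -0.12 for Snhg12. Of the WT libraries, replicate 2 correlated best with its own number (0.18), replicate 3 equally with its own number and with replicate 1 of the other group (0.12), and replicate 1 best with replicate 2 of the other group (0.12).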
